A study of Homo sapiens with 15 samples.

Results

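IGROV-CP20 is a human ovarian carcinoma cell line that was derived from IGROV cells and resists cisplatin. Its transcriptome after Tranilast followed by cisplatin was compared with that after cisplatin alone, and 6 of the 15 libraries of the series made up the comparison. They were chosen by their labels. In the 3 Tranilast and cisplatin libraries the cells first stood for 24 h in 10 µM Tranilast, and 50 µM cisplatin followed for another 24 h. In the 3 cisplatin libraries the cells received 50 µM cisplatin for 24 h. The other groups of 3 were untreated cells and cells given 10 µM Telmisartan or 10 µM Amphotericin B for 24 h before the same cisplatin step. RNA was measured by QuantSeq, which places reads near the 3′ end of polyadenylated transcripts, and 11113 of 47634 gene identifiers had enough counts to be tested. Every library came from 1 resistant line. A library of Tranilast without cisplatin was not analysed here, so a change owed to Tranilast itself and a change in the response to cisplatin cannot be told apart. The labels give no preincubation for the cells with cisplatin alone, so drug and time in culture cannot be told apart either.

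Cisplatin is a platinum compound that crosslinks DNA and thereby obstructs replication and the passage of RNA polymerase II. Cells take up and distribute platinum partly through copper proteins, and the copper-transporting ATPase ATP7B is linked to platinum tolerance in this line. Tranilast is an anti-allergic drug that stabilises mast cells and is also used against keloid scars. The comparison addresses which transcripts differ when cells meet cisplatin after Tranilast.

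Total counts were between 2171154 and 2488037 in the cisplatin libraries and between 2164344 and 3517041 in the Tranilast libraries. The cisplatin libraries differed more among themselves than the Tranilast libraries did. Pearson correlations of log2 CPM, the counts scaled to a common library size, across genes were 0.913 and 0.895 between cisplatin replicate 1 and the other cisplatin libraries and 0.964 between those 2, against 0.980 to 0.985 within the Tranilast group. Mitochondrial rRNA took 13.71%, 5.609% and 3.414% of the counts in cisplatin replicates 1, 2 and 3, against 2.099% to 2.529% in the Tranilast libraries and 1.789% to 2.199% in untreated cells. The part of this difference in the results below was not tested beyond the fits that are named with them. Of 14 ovarian epithelial markers 7 passed the filter and none of them was called; KRT18 and EPCAM were expressed, whereas PAX8, KRT7, MUC16 and CLDN3, which mark this epithelium, had no counts in the untreated, cisplatin and Tranilast libraries. Markers of endothelial cells were at or near 0 throughout. The 9 fibroblast markers, by contrast, summed to 1488 to 1553 CPM in untreated cells, 88.3 to 348 CPM with cisplatin and 164 to 221 CPM with Tranilast. Of the leukocyte, fibroblast and hepatocyte markers 1, 3 and 2 were tested and edgeR called 0; the leukocyte marker was PTPRC at 16.6 CPM with Tranilast and 7.0 CPM with cisplatin, which was higher at an unadjusted p under 0.05, by limma-voom and without cisplatin replicate 1 or Tranilast replicate 1, and CD3E, MS4A1 and ITGAM had no counts in these groups.

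With Tranilast, 1293 genes were lower than with cisplatin alone (11.6% of those tested) and 1169 were higher (10.5%) at an adjusted p under 0.05 (edgeR quasi-likelihood test with Benjamini-Hochberg adjustment, n = 3 libraries per group). These shares of all genes are the background for the counts of list members below. The median absolute log2 fold change was 1.04 among the lower and 1.07 among the higher genes. At least a 2-fold change was seen for 689 lower and 671 higher genes, and at least a 4-fold change for 91 and 53. The split depended on the scaling. Without factors for library composition 397 genes were lower and 2582 higher, and the median log2 fold change of all genes moved from 0.02 to 0.46. Directions given below are relative to that median. Counts of list members without these factors have 397 lower and 2582 higher genes of 11113 as their background. Under this scaling the median turned from below to above 0 for mitochondrial ribosomal proteins, the copper list, base excision repair, G1/S genes, chaperones of the endoplasmic reticulum, histones and the lists of cholesterol, NRF2, autophagy, NF-kappaB, BCL2 and aryl hydrocarbon receptor genes. In these bulk libraries fewer cells of a kind and less RNA per cell cannot be told apart.

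**Figure D1:**
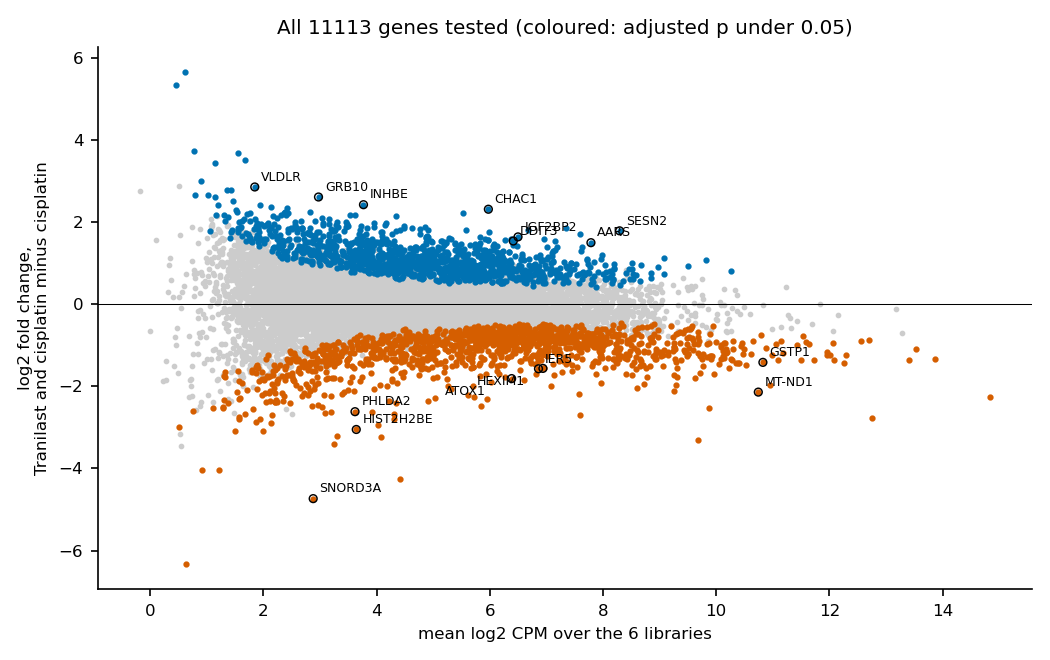
Log2 fold change (Tranilast and cisplatin minus cisplatin, vertical axis) against the mean log2 CPM over the 6 libraries (horizontal axis) for the 11113 genes tested. Orange and blue points are the 1293 lower and 1169 higher genes at an adjusted p under 0.05, grey points are the others, and circled genes are named in the text.

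Among protein-coding genes whose groups did not overlap and whose log2 CPM averaged 3 or more, the 5 steepest decreases were of HIST2H2BE, PHLDA2, JMJD6, FOSB and RSRP1. HIST2H2BE, which encodes a histone H2B, was at 43.1, 32.4 and 23.8 CPM with cisplatin and at 4.47, 3.82 and 3.61 CPM with Tranilast. It fell by 3.05 on the log2 scale (SE 0.35, adjusted p = 0.000404), and its untreated level was 3.42 CPM ± 1.32 (SD, n = 3). The highest Tranilast library thus lay far below the lowest cisplatin library and close to untreated cells. PHLDA2, a pleckstrin homology protein of an imprinted region, fell by 2.62 (SE 0.48, adjusted p = 0.00251). JMJD6, a lysyl hydroxylase that acts on splicing and chromatin proteins, fell by 2.40 (SE 0.40, adjusted p = 0.00175), and RSRP1, an arginine and serine rich protein, by 2.31 (SE 0.38, adjusted p = 0.00163); exons of RSRP1 overlap TMEM50A on the opposite strand, and reads of the pair may not be separable. The steepest increases in the same class were of INHBE (2.42, SE 0.62, adjusted p = 0.0114), CHAC1 (2.31, SE 0.47, adjusted p = 0.00374), GDF15 (2.21, SE 0.50, adjusted p = 0.00603), POLR3B (2.17, SE 0.33, adjusted p = 0.00136) and GDPD1 (2.17, SE 0.47, adjusted p = 0.00501). INHBE encodes an inhibin subunit, GDF15 a stress cytokine and POLR3B the second largest subunit of RNA polymerase III. The call of INHBE was lost without cisplatin replicate 2 (adjusted p = 0.0607).

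Immediate early genes are switched on within minutes of a stimulus without new protein synthesis. Of 37 tested, 17 fell (45.9%), 2 rose (5.41%) and 18 passed in neither direction, where 11.6% of all genes fell and 10.5% rose. The median log2 fold change was -0.63, beside 0.02 for all genes. The count of lower members was between 8 and 17 when 1 of the 6 libraries was left out, lowest without cisplatin replicate 2, and 6 without composition factors. Among the 20 transcription factors of the list 8 fell and 1 rose, and among the other 17 members 9 fell and 1 rose.

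IER5, an immediate early gene that cooperates with heat shock factor 1, was at 198, 240.4 and 162 CPM with cisplatin and at 72.6, 64.1 and 65.2 CPM with Tranilast. It fell by 1.57 (SE 0.18, adjusted p = 0.000404), and untreated libraries held 44.4 CPM ± 4.17 (SD, n = 3). The groups did not overlap, and the Tranilast libraries were tight around a level above that of untreated cells. FOSB, a subunit of the AP-1 transcription factor, was at 42.6, 46.6 and 31.0 CPM with cisplatin and at 10.8, 6.54 and 6.54 CPM with Tranilast, and fell by 2.35 (SE 0.33, adjusted p = 0.00114). The remaining named members were chosen after their values were seen. JUN, the partner of FOS proteins in AP-1, fell from 451 CPM ± 125 to 155 CPM ± 8.08 (SD, n = 3; log2 fold change -1.54, adjusted p = 0.00265). HBEGF, an EGF receptor ligand, fell by 2.06 (SE 0.35, adjusted p = 0.00192), and the orphan nuclear receptor NR4A2 by 1.54 (SE 0.30, adjusted p = 0.0031). NR4A2 was 32.0 CPM ± 13.8 with Tranilast and 3.48 CPM ± 0.886 (SD, n = 3) in untreated cells, so that it stayed well above the untreated level. Members also moved the other way. JUND, the AP-1 subunit that is expressed without stimulation, rose by 0.85 (SE 0.18, adjusted p = 0.0053). DUSP6, the phosphatase that opposes ERK, rose by 1.15 (SE 0.30, adjusted p = 0.0126), a call that was lost without cisplatin replicate 2 (adjusted p = 0.0596) and without Tranilast replicate 3 (adjusted p = 0.0667).

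**Figure D2:**
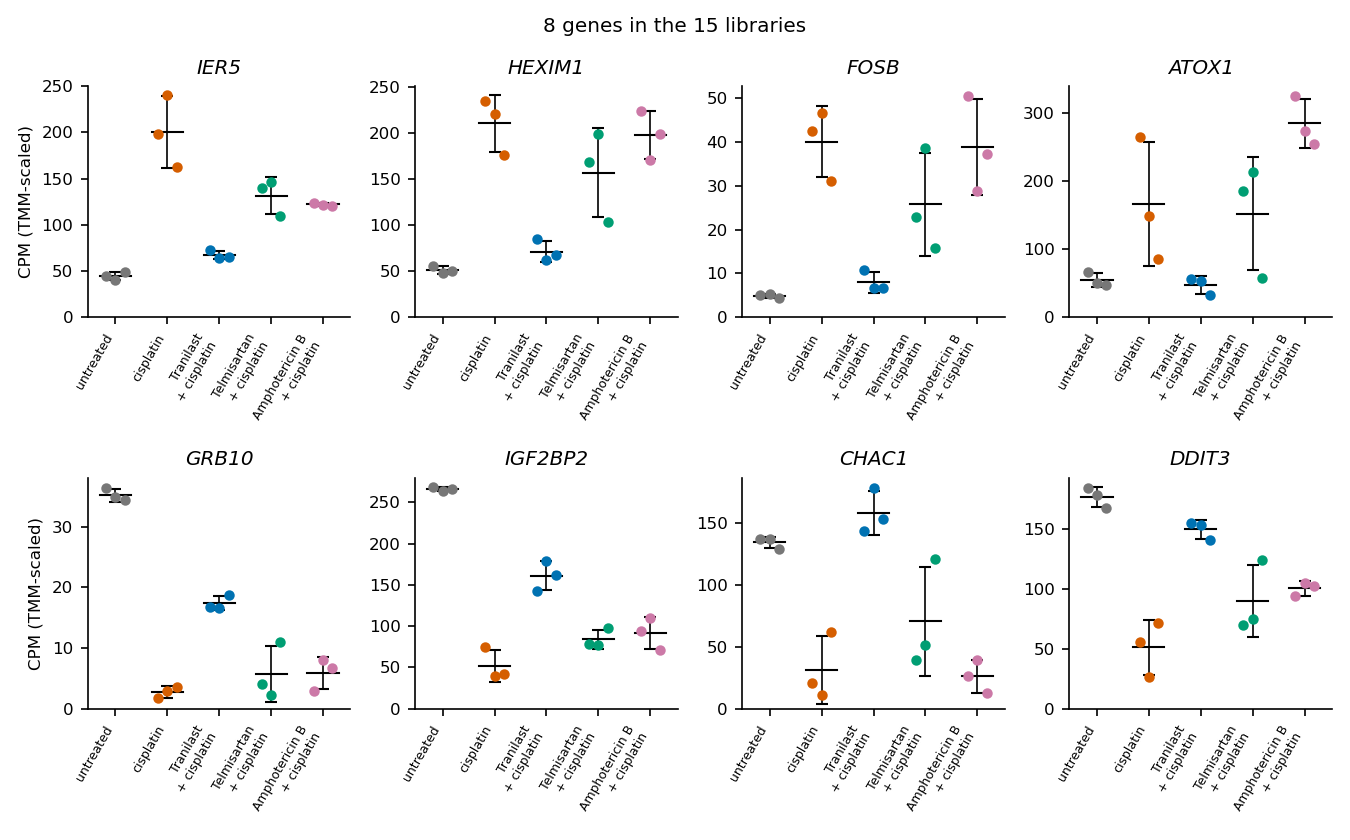
CPM of 8 genes (vertical axes from 0) in the 15 libraries, grouped by treatment (horizontal axes); points are libraries, bars are means and whiskers are SDs, n = 3. For IER5, HEXIM1, FOSB and ATOX1 the Tranilast libraries lie below the cisplatin libraries, and for GRB10, IGF2BP2, CHAC1 and DDIT3 above them.

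P-TEFb is the kinase of CDK9 and cyclin T that releases paused RNA polymerase II, and HEXIM1 holds it inactive within the 7SK ribonucleoprotein. HEXIM1 was at 236, 221 and 176 CPM with cisplatin and at 84.5, 62.4 and 67.3 CPM with Tranilast. It fell by 1.56 (SE 0.22, adjusted p = 0.00114), and untreated cells had 51.2 CPM ± 3.92 (SD, n = 3). The remainder of the list split. Of 30 tested members 3 fell and 4 rose, which left both shares near the background of 11.6% and 10.5%. Without cisplatin replicate 1 the lower members were 6, and with the mitochondrial rRNA covariate 7. SUPT4H1, a subunit of the elongation factor DSIF, fell by 1.01 (SE 0.20, adjusted p = 0.00343), and the acetyl-lysine reader BRD2 fell by 0.72 (SE 0.23, adjusted p = 0.0327), which was lost without any single Tranilast library and without cisplatin replicates 2 or 3. LARP7, a stabiliser of 7SK RNA, rose by 0.81 (SE 0.18, adjusted p = 0.00609), CDC73 of the PAF1 complex by 0.90 (SE 0.18, adjusted p = 0.00335) and AFF4 of the super elongation complex by 0.69 (SE 0.23, adjusted p = 0.0368), the last of which was lost without any single Tranilast library and without cisplatin replicates 1 or 2. The kinase and HEXIM2 did not pass by edgeR with all libraries: CDK9 had a log2 fold change of -0.60 (SE 0.46, adjusted p = 0.358), CCNT1 of -0.47 (SE 0.20, adjusted p = 0.096) and HEXIM2 of 0.70 (SE 0.31, adjusted p = 0.114). CCNT1 passed as lower by DESeq2 (adjusted p = 0.0339), with the mitochondrial rRNA covariate (adjusted p = 0.00297) and without cisplatin replicate 1 (adjusted p = 0.0451), and HEXIM2 as higher without composition factors (adjusted p = 0.034) and without cisplatin replicate 2 (adjusted p = 0.044).

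The integrated stress response is the programme in which phosphorylated eIF2α favours translation of the transcription factor ATF4, which then raises genes for amino acid transport, synthesis and redox balance. It was higher with Tranilast. Of 45 members tested 22 rose, 0 fell by edgeR (1 at an unadjusted p under 0.05 and 1 by DESeq2) and 23 passed in neither direction, and the median log2 fold change was 0.81. The members that passed made up 48.9% of the list, beside 10.5% of all genes. Without 1 of the 6 libraries the count of higher members was between 11 and 28, lowest without cisplatin replicate 2. Lower members were 1 without cisplatin replicate 1 and 3 with the mitochondrial rRNA covariate. Among the 13 sensors and regulators 4 rose, and among the 32 targets 18 did. The summed level of the 47 genes was 4022, 3475 and 5875 CPM with cisplatin, 7477, 8239 and 7925 CPM with Tranilast, and 8155 to 8653 CPM in untreated cells.

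DDIT3, which encodes the transcription factor CHOP, was at 56.0, 26.5 and 71.9 CPM with cisplatin and at 155, 154 and 141 CPM with Tranilast, and rose by 1.54 (SE 0.27, adjusted p = 0.00198). Its untreated level was 177 CPM ± 8.54 (SD, n = 3), above both groups; its exons overlap MARS and MBD6 on the opposite strand. CHAC1, an enzyme that degrades glutathione, was at 20.7, 10.8 and 62.0 CPM with cisplatin and at 144, 178 and 153 CPM with Tranilast, where untreated cells had 134 CPM ± 4.62 (SD, n = 3). Cisplatin replicate 3 was the highest of its group for both genes and for most members given here, yet remained under every Tranilast library. SESN2, a stress-induced inhibitor of mTORC1 signalling, was at 123, 111 and 298 CPM with cisplatin and 614 CPM ± 62.1 (SD, n = 3) with Tranilast, and rose by 1.79 (SE 0.43, adjusted p = 0.00818). SLC7A11, the cystine transporter, rose by 1.58 (SE 0.35, adjusted p = 0.00584), and VLDLR, a lipoprotein receptor, by 2.85 (SE 0.55, adjusted p = 0.0031), although from only 0.942 CPM ± 0.473 (SD, n = 3). Chosen after their values were seen, DDIT4, an mTORC1 inhibitor, rose by 1.86 (SE 0.36, adjusted p = 0.00321) and the pseudokinase TRIB3 by 1.63 (SE 0.35, adjusted p = 0.00496). The transcript of ATF4 itself was at 894, 591 and 1390 CPM with cisplatin and at 1668, 1829 and 1541 CPM with Tranilast. It rose by 0.81 (SE 0.25, adjusted p = 0.028), a call that was lost without any single Tranilast library and without cisplatin replicate 2 (highest adjusted p = 0.137).

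ATF4 binds with C/EBP proteins to a composite element, and its letters were searched as TGATGNAAN on either strand within 300 bases around each start that RefSeq annotates on GRCh38.p14. Of the 22 members that rose 18 had such a window and 3 of them held the letters (16.7%). Among the 23 that passed in neither direction 18 had a window and 6 held them (33.3%), and 4.45% of all 27305 genes with a window did. The letters are shown for CHAC1 and JDP2, which rose and held them before the start, with the match in capitals. The match of CHAC1 reads on the opposite strand. The windows lie at chr15:40953236-40953295 and chr14:75427962-75428021, both on the plus strand.
CHAC1: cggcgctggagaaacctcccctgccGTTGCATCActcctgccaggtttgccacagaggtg
JDP2: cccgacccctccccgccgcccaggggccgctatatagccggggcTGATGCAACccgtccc
The shorter core GCGTG, which the aryl hydrocarbon receptor recognises, was in the window of 14 of the 18 members that rose (77.8%), 10 of the 18 in neither direction (55.6%) and 40.6% of all genes. These counts describe letters, not binding.

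Aminoacyl-tRNA synthetases, the enzymes that charge tRNA and many of which respond to ATF4, partly followed. Of 20 cytosolic enzymes 8 rose and 1 fell, with a median log2 fold change of 0.49. AARS, the alanyl-tRNA synthetase, was at 118, 107 and 171 CPM with cisplatin and at 367, 403 and 353 CPM with Tranilast, and rose (log2 fold change 1.5, SE 0.25, adjusted p = 0.00163). EPRS, which charges glutamate and proline tRNAs, rose by 0.97 (SE 0.21, adjusted p = 0.00473). The decrease of KARS (log2 fold change -0.55, adjusted p = 0.0478) was lost in 11 of 18 other fits. The count of higher enzymes fell to 3 without cisplatin replicate 2 or Tranilast replicate 3. Of 26 chaperones of the endoplasmic reticulum and unfolded protein response genes 4 fell (15.4%) and 3 rose (11.5%), near the 11.6% and 10.5% of all genes. Each count was 1 to 5 when 1 library was left out. Without composition factors 0 were lower and 10 higher, in a fit where 397 of all 11113 genes were lower and 2582 higher. SDF2L1 fell by 0.77 (SE 0.16, adjusted p = 0.00364) and MANF by 0.94 (SE 0.24, adjusted p = 0.0101), both secretory pathway chaperones. Without composition factors both calls were lost (adjusted p = 0.2 and 0.143). MANF was also lost without Tranilast replicate 2 (adjusted p = 0.0528). XBP1, a transcription factor of the unfolded protein response, rose by 1.27 (SE 0.22, adjusted p = 0.00197).

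**Figure D3:**
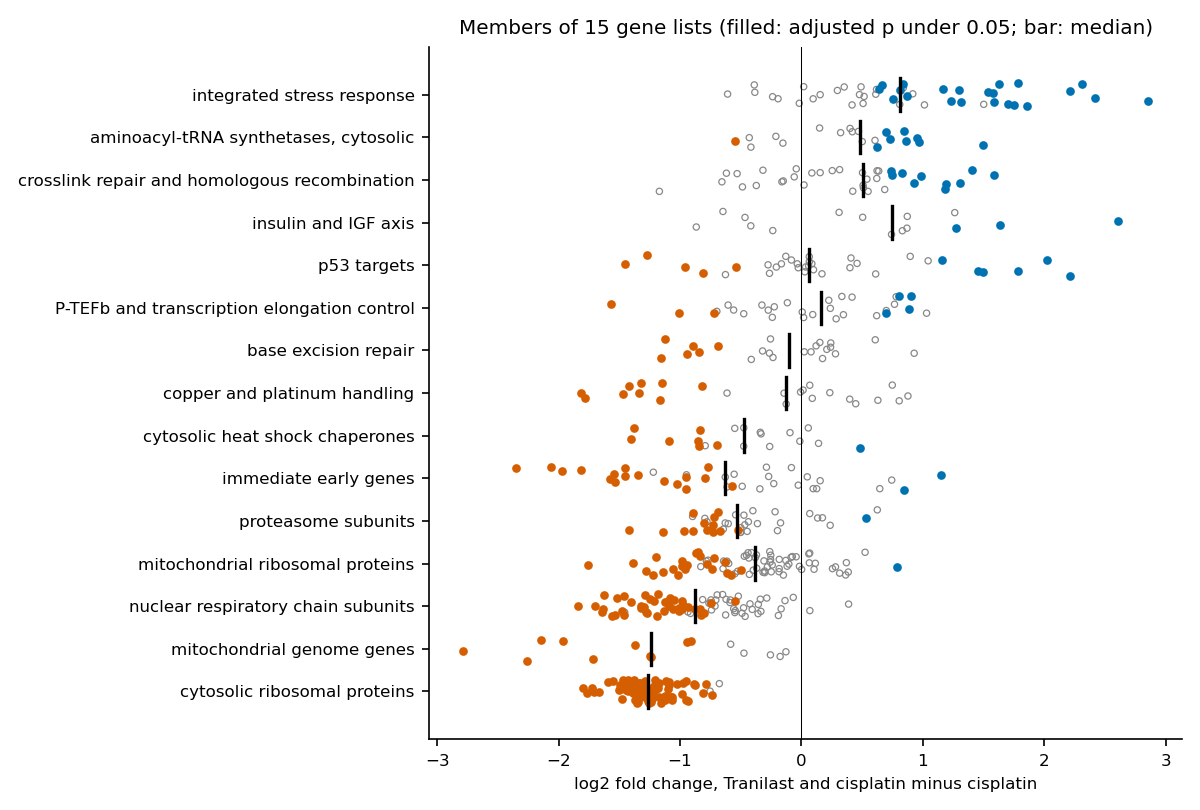
Log2 fold change (horizontal axis) of each tested member of 15 gene lists (rows); filled points passed an adjusted p of 0.05, open points did not, and black bars are list medians. The median was 0.81 for the integrated stress response and -1.27 for cytosolic ribosomal proteins, beside 0.02 for all genes.

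Cytosolic ribosomal protein genes were lower with Tranilast almost without exception. Of 79 tested 77 fell (97.5%), and RPL3 and RACK1 were the 2 that did not pass. None rose in any fit run (0 at an unadjusted p under 0.05 by edgeR with all libraries). The median log2 fold change was -1.27 and single values ran from -1.80 to -0.68. Of the large subunit 46 of 47 fell and of the small subunit 31 of 32. The summed level of the 80 genes was 307297, 188984 and 148167 CPM with cisplatin, 92062, 95709 and 89065 CPM with Tranilast, and 98719 to 104142 CPM in untreated cells. Cisplatin replicate 1, which also carried the largest share of mitochondrial rRNA, was the highest. Without it 56 of the 79 still passed, and with the mitochondrial rRNA share as a covariate 63 did. Leaving out 1 library gave between 45 and 78, lowest without Tranilast replicate 3, and without composition factors 67 passed and the median was -0.73. RPL7A was at 1580 CPM, 1194 CPM and 784 CPM with cisplatin and 349 CPM ± 22.2 (SD, n = 3) with Tranilast, and fell by 1.76 (SE 0.34, adjusted p = 0.00307). RPL29 fell by 1.38 (SE 0.27, adjusted p = 0.00318). Ribosomal protein genes have many processed pseudogenes that share their sequence, and counts may be split among them: of 230 processed pseudogenes tested, 101 were lower and 3 higher.

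**Figure D4:**
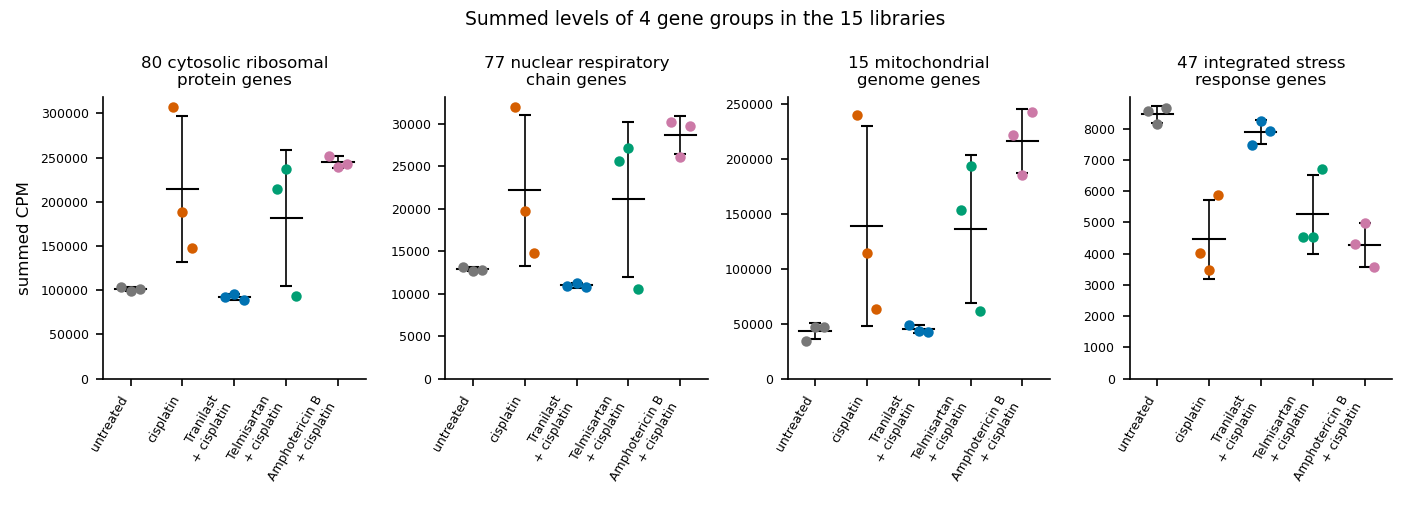
Summed CPM (vertical axes from 0) of 4 gene groups in the 15 libraries by treatment (horizontal axes); points are libraries, bars are means and whiskers are SDs, n = 3. The 3 Tranilast libraries lie near the untreated ones in each group, and the cisplatin libraries spread widely, from 148167 to 307297 CPM for ribosomal proteins.

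These mRNAs share a start rich in C and T, the terminal oligopyrimidine tract, which couples their translation to mTORC1. A run of at least 6 C or T letters over the annotated start was found in 50 of the 64 ribosomal protein genes that had a RefSeq window (78.1%), against 9.25% of all 27305 genes. The lists of other short and abundant transcripts were closer to all genes, with 8.82% of mitochondrial ribosomal proteins, 14.3% of nuclear respiratory chain subunits and 9.09% of proteasome subunits. Among those that fell and held such a run, 6 were taken in order of adjusted p. Not every chromosome was considered, so members with a smaller adjusted p may be missing. The starts of these 6 follow, with 15 bases on either side on GRCh38.p14 and the run in capitals. They lie at chr9:133348203-133348232 (plus strand), chr3:51995881-51995910 (minus), chr17:74203663-74203692 (plus), chr11:119018329-119018358 (minus), chr4:151099613-151099642 (plus) and chr10:78033848-78033877 (plus).
RPL7A: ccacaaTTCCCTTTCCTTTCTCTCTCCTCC
RPL29: caccgcagCCCCTTTCTCTTCCggttctag
RPL38: aacggaagtctcgTTCTTTTTCgtcctttt
RPS25: tctgagcagcgCTTCCTTTTTgtccgacat
RPS3A: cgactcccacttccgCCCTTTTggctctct
RPS24: cggcgaatcgtggTTCTCTTTTCCTCCTTg
The other transcripts of this class, which encode elongation factors and RNA-binding proteins, held the run as often, in 10 of 12 genes with a window (83.3%). Of these 18 genes 3 fell (16.7%), beside 11.6% of all genes, and 0 rose by edgeR. Their median log2 fold change was -0.52. DESeq2 called 8 lower, and leaving out 1 library gave 1 to 5. Higher genes were 1 without cisplatin replicate 1 and 2 with the mitochondrial rRNA covariate. NACA, a chaperone of nascent chains, fell by 1.07 (SE 0.25, adjusted p = 0.00786), and EEF1B2, an elongation factor subunit, by 0.95 (SE 0.26, adjusted p = 0.0151), the latter lost without cisplatin replicate 1 (adjusted p = 0.0565) and without Tranilast replicates 1 or 3. Both overlap exons of another gene.

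Transcripts for respiration were lower as well. Of 77 nuclear genes for respiratory chain subunits 41 fell (53.2%) and 0 rose by edgeR, with a median log2 fold change of -0.88. An increase had an unadjusted p under 0.05 in 1 gene, and DESeq2 and limma-voom called 0 higher. Without cisplatin replicate 1 edgeR called 1 higher, as it did without composition factors. By complex, 19 of 37 subunits of complex I fell, 0 of 4 of complex II, 5 of 9 of complex III, 9 of 11 of complex IV and 8 of 16 of ATP synthase. COX6B1 of complex IV was at 325, 197 and 112 CPM with cisplatin and at 70.3, 62.1 and 61.8 CPM with Tranilast, and fell by 1.70 (SE 0.37, adjusted p = 0.00504). UQCRB of complex III fell by 1.40 (SE 0.31, adjusted p = 0.00554). The count of lower genes depended on the libraries: it was 21 without cisplatin replicate 1, 17 without Tranilast replicate 3, and 20 with the mitochondrial rRNA share as a covariate. Of 15 genes of the mitochondrial genome 10 fell, 8 of 13 mRNAs and both rRNAs, and the list summed to 240406, 113983 and 63477 CPM with cisplatin and 42194 to 49215 CPM with Tranilast. MT-ND1 of complex I fell by 2.14 (SE 0.42, adjusted p = 0.00324) and MT-CO1 of complex IV by 1.96 (SE 0.38, adjusted p = 0.0031). MT-ND1 was at 869 CPM ± 87.3 with Tranilast and at 550 CPM ± 101 (SD, n = 3) in untreated cells.

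Mitochondrial ribosomal proteins, which translate those mRNAs, shifted less. Of 77 tested 22 fell (28.6%) and 1 rose (1.3%), with a median log2 fold change of -0.38. Without composition factors the median turned to 0.07, and 5 fell and 6 rose. Of all 11113 genes 397 fell and 2582 rose in that fit, and their median was 0.46. MRPS17 fell by 1.28 (SE 0.20, adjusted p = 0.00163) and MRPS12 by 1.06 (SE 0.17, adjusted p = 0.00163), both of the small subunit, while MRPS31 rose by 0.79 (SE 0.21, adjusted p = 0.0157), a call lost without Tranilast replicate 2 or cisplatin replicate 2. Of 38 proteasome subunits 13 fell (34.2%) and 1 rose (2.63%), with a median of -0.53. SEM1, a small lid subunit, fell from 400.2 CPM ± 159 to 149 CPM ± 2.12 (SD, n = 3; log2 fold change -1.42, adjusted p = 0.00399). The count of lower subunits was 2 without Tranilast replicate 3, 4 without cisplatin replicate 2, and 2 without composition factors. Of 19 cytosolic heat shock chaperones 7 fell (36.8%) and 1 rose (5.26%), with a median of -0.48. DNAJA1, a J-domain cochaperone, fell by 0.84 (SE 0.18, adjusted p = 0.00496) and AHSA1, an activator of HSP90, by 0.83 (SE 0.18, adjusted p = 0.00545). Leaving out Tranilast replicate 2 or 3 brought the count of lower chaperones to 3, and without composition factors it was 1.

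Copper proteins were examined because platinum travels along copper routes in the cell. Of 23 genes tested 9 fell (39.1%) and 0 rose by edgeR (2 at an unadjusted p under 0.05, 1 by limma-voom). Without cisplatin replicate 3, however, edgeR called 3 higher. The count of lower genes was 5 to 9 when 1 library was left out, lowest without Tranilast replicate 1, 4 with the mitochondrial rRNA covariate and 5 without composition factors. The copper chaperones and copper proteins held 7 of these 9, among 12 tested, while 0 of 3 transporters passed. ATOX1, the chaperone that delivers copper to ATP7A and ATP7B, was at 264, 148 and 85.0 CPM with cisplatin and at 56.6, 52.9 and 32.0 CPM with Tranilast. It fell by 1.81 (SE 0.41, adjusted p = 0.00604), and untreated libraries had 54.3 CPM ± 10.2 (SD, n = 3). The groups did not overlap, and cisplatin replicate 1 was again the highest; without it ATOX1 fell by 1.30 (adjusted p = 0.0193). Its exons overlap those of G3BP1 on the opposite strand. SOD1, the copper and zinc superoxide dismutase, was at 1103, 659.8 and 502 CPM with cisplatin and 337 CPM ± 17.9 (SD, n = 3) with Tranilast, and fell by 1.16 (SE 0.30, adjusted p = 0.011).

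Further members of the copper route differed in how far they depended on single libraries. SCO2, which inserts copper into cytochrome c oxidase, fell by 1.15 (SE 0.22, adjusted p = 0.00277) in every fit run. COX17, the copper chaperone of the mitochondrial intermembrane space, had a log2 fold change of -1.47 (SE 0.45, adjusted p = 0.0267), but was lost without cisplatin replicate 1 (adjusted p = 0.164), without any single Tranilast library, by limma-voom (adjusted p = 0.0558) and without composition factors (adjusted p = 0.0795). With the mitochondrial rRNA covariate COX17 was at -0.23 (adjusted p = 0.474). COX11 fell by 0.82 (SE 0.22, adjusted p = 0.0146) and was lost without Tranilast replicate 1 or 2 (highest adjusted p = 0.0577). COMMD1 and CUTA, both linked to copper, had log2 fold changes of -1.78 and -1.34 with adjusted p of 0.0411 and 0.0278, and each was lost without cisplatin replicates 1 or 2 and without Tranilast replicates 1 or 3; COMMD1 was also lost without Tranilast replicate 2. Among thiol proteins that bind platinum, GSTP1 fell by 1.42 (SE 0.35, adjusted p = 0.00914) and thioredoxin, TXN, by 1.32 (SE 0.33, adjusted p = 0.01), of which TXN was lost with the mitochondrial rRNA covariate (log2 fold change -0.51, adjusted p = 0.0548). Of the transporters, the copper importer SLC31A1 was at 91.8, 103 and 141 CPM with cisplatin and at 144, 156 and 143 CPM with Tranilast (log2 fold change 0.40, SE 0.27, adjusted p = 0.306). ATP7A had 0.63 (SE 0.64, adjusted p = 0.502) at a level of 2.59 CPM ± 1.18 (SD, n = 3) with Tranilast. ATP7B was under the filter: it was at 1.49, 0.818 and 0.677 CPM with Tranilast and at 1.12, 0 and 0 CPM with cisplatin, so that a difference was not detectable at this depth, where a count of 0 allows up to 0.000138% and 0.000128% of the counts in cisplatin replicates 2 and 3.

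DNA repair genes were counted by pathway, and differences between pathways were not tested. Of 36 factors of crosslink repair and homologous recombination, which resolve platinum crosslinks, 10 rose (27.8%) and 0 fell by edgeR. A decrease had an unadjusted p under 0.05 in 1 gene, and DESeq2 and limma-voom called 0 lower. Without cisplatin replicate 1, however, edgeR called 2 lower, and with the mitochondrial rRNA covariate 1. The median log2 fold change was 0.51. RAD50, of the complex that first binds broken ends, was at 96.3, 53 and 88.6 CPM with cisplatin and at 178, 170.1 and 195 CPM with Tranilast, and rose by 1.19 (SE 0.21, adjusted p = 0.00198). POLK, a translesion polymerase, rose by 0.99 (SE 0.22, adjusted p = 0.00531). Both stayed below untreated cells, at 285 CPM ± 12.3 and 73.1 CPM ± 4.84 (SD, n = 3). The count of higher genes was 4 without cisplatin replicate 2 or Tranilast replicate 3. In base excision repair 6 of 22 genes fell (27.3%) and 0 rose by edgeR (1 at an unadjusted p under 0.05). The median was -0.10, and 2 genes were lower without cisplatin replicate 2. Without composition factors 0 of the 22 were lower and 7 higher, in a fit where 397 of all 11113 genes were lower and 2582 higher. The uracil glycosylase UNG fell by 0.89 (SE 0.20, adjusted p = 0.00532) and the glycosylase NEIL2 by 0.95 (SE 0.20, adjusted p = 0.00503). UNG was at 178, 311 and 270.5 CPM with cisplatin, at 155, 139 and 115 CPM with Tranilast, and at 46.7 CPM ± 3.27 (SD, n = 3) in untreated cells. In nucleotide excision repair, the main route for intrastrand adducts, 2 of 24 genes were lower and 1 higher, shares below the background. GTF2H5 and CETN2 were the lower genes and RAD23B the higher, and each call was lost in 6 or more of 18 other fits.

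Among targets of p53, 5 of 34 fell (14.7%) and 6 rose (17.6%), beside 11.6% and 10.5% of all genes. Their median log2 fold change was 0.06. The count of higher targets was 2 without Tranilast replicates 2 or 3 or cisplatin replicate 2 and with the mitochondrial rRNA covariate, and 8 without cisplatin replicate 3. TRIAP1, an inhibitor of apoptosome assembly, fell by 1.27 (SE 0.18, adjusted p = 0.00114), and the proapoptotic PMAIP1, also called NOXA, by 0.96 (SE 0.19, adjusted p = 0.0037). GDF15 was at 23.5, 5.89 and 41.7 CPM with cisplatin and at 82.6, 130.3 and 122 CPM with Tranilast; it and SESN2, which rose, are also members of the integrated stress response list. In the BCL2 family 3 of 14 fell (21.4%) and 2 rose (14.3%), and each count was 1 to 3 without 1 library. The proapoptotic HRK rose by 1.86 (SE 0.39, adjusted p = 0.00417) from 2.65 CPM ± 0.368 to 9.85 CPM ± 0.706 (SD, n = 3). The count for the cell cycle depended on the fit. Of 34 G1/S and replication genes 2 fell (5.88%) and 1 rose (2.94%), shares below those of all genes. CCNE1, cyclin E1, fell by 1.13 (SE 0.27, adjusted p = 0.00781; lost without cisplatin replicate 2), and RFC3, of the clamp loader, rose by 0.70 (SE 0.18, adjusted p = 0.0111). Without cisplatin replicate 1, however, 7 of these genes were lower, and with the mitochondrial rRNA covariate 14 were lower and 2 higher. Of 32 G2/M genes 4 fell (12.5%) and 2 rose (6.25%), with 3 to 4 lower and 0 to 4 higher when 1 library was left out. PTTG1, securin, fell by 1.52 (SE 0.29, adjusted p = 0.00298) and the ubiquitin-conjugating enzyme UBE2C by 1.25 (SE 0.25, adjusted p = 0.00358), and the spindle factor TPX2 rose by 0.68 (SE 0.20, adjusted p = 0.0208; lost without Tranilast replicates 2 or 3 or cisplatin replicate 2).

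In the insulin and IGF axis 3 of 15 tested genes rose (20%), beside 10.5% of all genes. By edgeR 0 fell (0 at an unadjusted p under 0.05, 1 by DESeq2), and the median log2 fold change was 0.74. All 3 that rose were adaptors or mRNA-binding proteins. GRB10, an adaptor that dampens insulin and IGF1 receptor signalling, was at 1.68, 2.94 and 3.57 CPM with cisplatin and at 16.7, 16.6 and 18.7 CPM with Tranilast, and rose by 2.61 (SE 0.44, adjusted p = 0.00182). IGF2BP2, which binds and stabilises mRNAs, was at 74.5, 39.2 and 42.5 CPM with cisplatin and at 143, 179 and 162 CPM with Tranilast, and rose by 1.64 (SE 0.23, adjusted p = 0.00114). Neither pair of groups overlapped, and both genes stayed below untreated cells, at 35.2 CPM ± 1.04 and 266 CPM ± 2.27 (SD, n = 3). IGF2BP3 rose by 1.28 (SE 0.29, adjusted p = 0.00642). With all libraries the receptors did not pass, with log2 fold changes of 1.26 (SE 0.67, adjusted p = 0.181) for INSR and 0.83 (SE 0.46, adjusted p = 0.2) for IGF1R. Without cisplatin replicate 1, 6 of the 15 were higher by edgeR, among them IGF1R (log2 fold change 1.39, adjusted p = 0.0495).

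Other pathways known for Tranilast or for platinum stress were counted beside all genes, of which 11.6% were lower and 10.5% higher. The shares were 20% and 10% for NRF2 targets and 10.3% and 3.45% for cholesterol genes. They were 11.4% and 14.3% for autophagy genes, 14.3% and 7.14% for NF-kappaB genes and 0% and 10.5% for TGF-beta genes. Of 4 tested genes of the aryl hydrocarbon receptor, of which Tranilast is a known agonist, edgeR called 0, with 1 higher at an unadjusted p under 0.05 (limma-voom called 1 and DESeq2 0). CYP1B1, an inducible target, had a log2 fold change of -0.42 (SE 0.23, adjusted p = 0.188) and NQO1 of 0.12 (SE 0.21, adjusted p = 0.717). NQO1 passed as higher by edgeR with the mitochondrial rRNA covariate (adjusted p = 0.0191) and without composition factors (adjusted p = 0.0231). Of 19 genes of TGF-beta signalling and matrix, a pathway that Tranilast dampens in fibroblasts, 2 rose and 0 fell by edgeR (1 at an unadjusted p under 0.05 and 1 by DESeq2): the corepressor SKI (1.05, SE 0.25, adjusted p = 0.00763) and the collagen COL5A2 (1.18, SE 0.37, adjusted p = 0.0311), whose groups overlapped and whose call was lost without replicates 2 or 3 of either group. Of 20 NRF2 targets 4 fell and 2 rose, with 1 to 4 higher when 1 library was left out. FTL, the ferritin light chain, fell by 1.17 (SE 0.21, adjusted p = 0.00204) and SRXN1, sulfiredoxin, by 1.02 (SE 0.18, adjusted p = 0.00209), whereas SLC7A11 rose. Of 29 cholesterol genes 3 fell and 1 rose (1 to 4 and 0 to 3 without 1 library), with MSMO1, a sterol demethylation enzyme, at 108 CPM ± 8.69 with cisplatin and 48.2 CPM ± 3.11 (SD, n = 3) with Tranilast (log2 fold change -1.17, adjusted p = 0.00114). In the autophagy and lysosome list 4 of 35 fell and 5 rose, and in the NF-kappaB list 2 of 14 fell and 1 rose. Without cisplatin replicate 2 no autophagy gene was called higher by edgeR, and with the mitochondrial rRNA covariate 9 were lower. The NF-kappaB list had 5 lower genes without cisplatin replicate 1 and 6 with the covariate. ATG12 and GABARAP, ubiquitin-like autophagy proteins, fell by 0.81 and 0.85 (SE 0.18 and 0.20, adjusted p = 0.00549 and 0.00693), and the inhibitor NFKBIB fell by 0.91 (SE 0.19, adjusted p = 0.00429). Without composition factors these 3 calls were lost (adjusted p = 0.138, 0.0944 and 0.169), and 0 autophagy genes were lower and 10 higher. Among all 11113 genes 397 were lower and 2582 higher in that fit. The autophagy genes ULK2 and ATG10 rose by 1.138 and 1.515 (adjusted p = 0.0108 and 0.0174). CXCL1 of the NF-kappaB list rose by 1.27 (adjusted p = 0.0275). All of these increases were lost without cisplatin replicate 2.

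Replication-dependent histone genes and abundant RNAs listed as nonpolyadenylated were few among the genes tested. Whether the histone reads came from transcripts with a poly(A) tail was not tested. Of 13 replication-dependent histone genes 3 fell and 0 rose by edgeR (2 at an unadjusted p under 0.05), and 2 were called each way once cisplatin replicate 1 was left out. Of the abundant RNAs listed as nonpolyadenylated 3 were tested and 2 fell. SNORD3A, the U3 small nucleolar RNA, was at 88.5, 21.6 and 7.55 CPM with cisplatin and at 1.12, 1.91 and 1.13 CPM with Tranilast, and fell by 4.74 (SE 0.91, adjusted p = 0.00301). RMRP, the RNA of RNase MRP, was at 94.6, 11.8 and 7.55 CPM with cisplatin and 3.43 CPM ± 0.611 (SD, n = 3) with Tranilast, and its call was lost without cisplatin replicate 1 (adjusted p = 0.27) and without Tranilast replicates 2 or 3. The cisplatin levels of both RNAs followed the order of the mitochondrial rRNA share, and with that share as a covariate RMRP had a log2 fold change of -0.26 (adjusted p = 0.682), while SNORD3A still passed. The uncharacterised noncoding gene AL356488.2 fell by 4.27 (SE 0.86, adjusted p = 0.00361), from 221, 87.3 and 21.4 CPM with cisplatin, while AL365181.3 rose by 1.85 (SE 0.42, adjusted p = 0.0062).

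Genes that fell and genes that rose differed in length. Among protein-coding genes the median span from first to last annotated base was 10.1 kb for the 1037 that fell, 105 kb for the 1130 that rose and 32.6 kb for all 10081 tested. Spans are from GENCODE 29 and were used only as lengths. The share that fell was 29.8% of 786 genes under 5 kb, 25.7% from 5 to 10 kb, 13.7% from 10 to 30 kb, 2.80% from 30 to 100 kb, 1.44% from 100 to 300 kb and 2.14% of 281 genes of 300 kb and over. The share that rose was 2.04%, 2.76%, 2.96%, 11.4%, 36.4% and 16.4% in the same order, so that the class from 100 to 300 kb held the largest part. The median log2 fold changes were -0.50, -0.37, -0.18, 0.24, 0.72 and 0.37. Set against the untreated mean, the median gene from 100 to 300 kb was at -0.90, -1.41 and -1.05 (log2) in the cisplatin libraries and at -0.44, -0.33 and -0.29 in the Tranilast libraries. For genes under 5 kb it was at 0.63, 0.61 and 0.45 with cisplatin and at 0.10, 0.09 and 0.05 with Tranilast. The groups did not overlap in either class, and the Tranilast libraries were the nearer to untreated cells. In the longest class they overlapped, at -1.02, -2.27 and -2.49 with cisplatin and at -1.76, -1.29 and -1.27 with Tranilast, because cisplatin replicate 1 was the highest of the 6; without it the median log2 fold change of that class was 0.96. These are descriptions over genes, which are not replicates. The gene lists differ in span too, with medians of 5.52 kb for cytosolic ribosomal proteins, 6.0 kb for immediate early genes, 12.5 kb for respiratory chain subunits, 71.6 kb for crosslink repair and 87.6 kb for the insulin and IGF axis. The integrated stress response, of which 22 of 45 tested members rose, had a median of 23.8 kb over all 45. This was 9.36 kb for its 13 sensors and regulators, of which 4 rose, and 26.2 kb for its 32 targets, of which 18 rose. Whether gene length has a part in the change of any list was not tested.

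**Figure D5:**
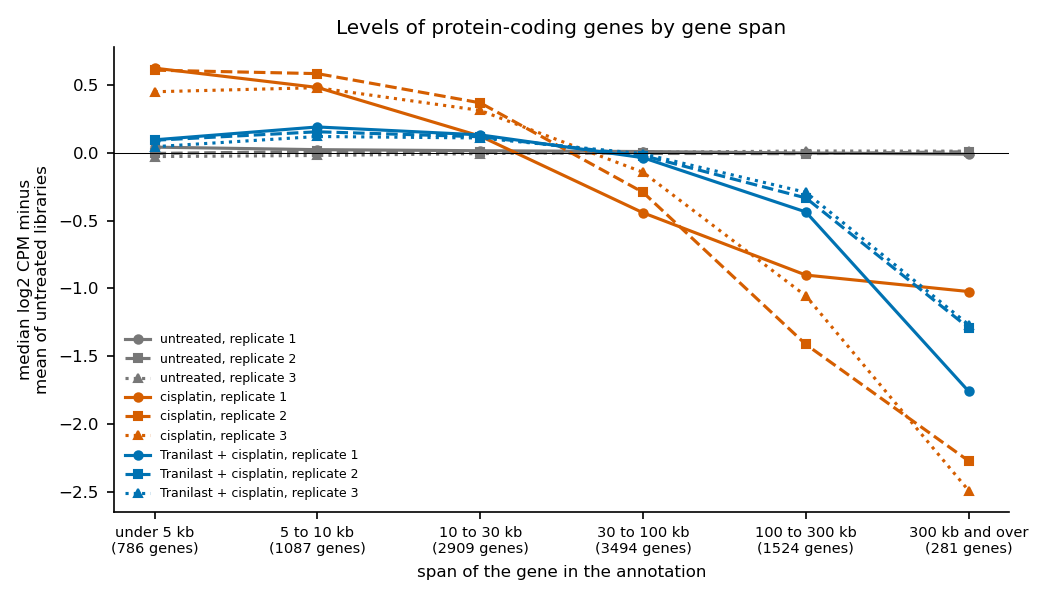
Median log2 CPM of protein-coding genes minus the mean of the untreated libraries (vertical axis) in 6 classes of gene span (horizontal axis, with the number of genes); each line is a library, with colour for the group and line style for the replicate. Cisplatin libraries run from above 0 for short genes to between -0.90 and -1.41 for genes of 100 to 300 kb, and Tranilast libraries stay closer to 0 in that class and under 5 kb.

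The drugs that preceded cisplatin were also compared with one another in the same fit, where 2 differences of Tranilast, from Telmisartan and from Amphotericin B, were tested per gene. Tranilast is an anthranilic acid derivative, Telmisartan an angiotensin receptor blocker and Amphotericin B a polyene antifungal. All were given at 10 µM for the 24 h before cisplatin. Against Telmisartan 195 genes were lower (1.75%) and 65 higher (0.585%) with Tranilast, but without any single Tranilast library edgeR called 0 or 1 lower and 0 higher genes, with 1043 to 1180 and 722 to 987 at an unadjusted p under 0.05, so that these calls rest on every Tranilast library. With all libraries limma-voom called 6 and 1, and DESeq2 721 and 230. Against Amphotericin B 1817 were lower (16.4%) and 2186 higher (19.7%); with the mitochondrial rRNA share as a covariate, which was 12.28% to 14.81% in the Amphotericin B libraries, 11 and 75 were called. HEXIM1 was at 157 CPM with Telmisartan and 198 CPM with Amphotericin B, and the log2 fold changes of Tranilast were -1.14 (adjusted p = 0.0412) and -1.48 (adjusted p = 0.000808). IER5 differed by -0.97 (adjusted p = 0.0412) and -0.86 (adjusted p = 0.00229), and IGF2BP2 by 0.93 (adjusted p = 0.0438) and 0.81 (adjusted p = 0.0102). GRB10 differed from Amphotericin B by 1.58 (adjusted p = 0.00944), and from Telmisartan by 1.43 with an adjusted p of 0.0509. ATOX1 was 152 CPM with Telmisartan and 284 CPM with Amphotericin B, which gave -1.68 (adjusted p = 0.0438) and -2.60 (adjusted p = 0.00103).

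By list, 21 of the 79 ribosomal proteins were lower with Tranilast than with Telmisartan and all 79 were lower than with Amphotericin B, and none was higher. The integrated stress response held 2 higher and no lower members against Telmisartan, and 30 higher and 1 lower against Amphotericin B. DDIT3 passed against neither, with differences of 0.73 (adjusted p = 0.11) and 0.58 (adjusted p = 0.0952), while CHAC1 was higher than with Amphotericin B by 2.61 (adjusted p = 0.00147). Telmisartan replicate 3 stood nearer to the Tranilast libraries than the other Telmisartan libraries did, with ribosomal proteins summing to 93549 CPM against 214758 and 237267 CPM. Of the lists of other pathways, immediate early genes were lower in 7 of 37 members against Telmisartan and in 12 against Amphotericin B, where 6 were higher.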

How the data were processed

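RNA of 15 IGROV-CP20 libraries, 3 for each of 5 conditions, was sequenced by QuantSeq 3′ mRNA profiling, and the submitters' processing notes name STAR 2.3.0, HTSeq and the hg19 build without giving their roles. The authors deposited whole counts per gene for each library, with no normalization, and the strand setting is not given in the sources used here. Groups came from the labels, which call the libraries biological replicates.

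Counts were tested with edgeR 4.0.16 (R 4.3.3) by the quasi-likelihood test after filterByExpr and TMM factors, in 1 fit of all 15 libraries, with Benjamini-Hochberg adjustment over 11113 genes and a threshold of 0.05. CPM are scaled by TMM. Standard errors were derived from the F statistic. Total counts limit low genes, and floors of 3 counts cover counting error only. limma 3.58.1 and DESeq2 1.42.0 served as alternatives. The procedure was tested on simulated data. Names, types and spans were taken from GENCODE 29 (45776 of 47634 identifiers matched), and start sequences from RefSeq tables of GRCh38.p14.

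Members and lists were chosen with earlier results of these data known. Named genes were IER5, HEXIM1, GRB10 and IGF2BP2; the 5 largest changes each way among protein-coding genes and the 2 largest among other types, without overlap of groups and averaging a log2 CPM of 3 or more; 6 copper genes; up to 2 genes of smallest adjusted p each way in every list; and any member of 4 lists (transcription elongation, insulin and IGF, aryl hydrocarbon receptor, copper). ATF4, DDIT4, TRIB3, JUN, HBEGF and NR4A2 fell outside this rule and, like the search for pyrimidine runs, were chosen after values were seen. Some genes that the rule names are not reported here.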

Additional observations from a re-analysis of the deposited data

How the results depend on the processing

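Against cisplatin alone, 1293 genes were lower and 1169 higher with Tranilast. Without composition factors these counts were 397 and 2582, and at a threshold of 0.01 they were 491 and 407. When 1 library was left out they ranged from 569 to 1511 and from 471 to 1423, lowest without Tranilast replicate 3 and without cisplatin replicate 2, respectively. The other alternatives stayed within 1.5 times. A replicate block gave 1285 and 1233. Deviations of same-numbered Tranilast and cisplatin libraries from their group means correlated at -0.235, -0.0771 and -0.0684. With so few libraries per group these values cannot decide whether equal numbers were handled together, which the sources used here do not say. Against Telmisartan the block gave 312 lower and 131 higher genes.

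Against Telmisartan, where 195 were lower and 65 higher, the likelihood ratio test gave 661 and 379, DESeq2 721 and 230, limma-voom 6 and 1, upper quartile factors 112 and 29, library size only 1 and 0, no filter beyond 1 count 686 and 322, and the mitochondrial rRNA covariate 102 and 287. A fit of the 6 libraries alone and a threshold of 0.01 gave 0 and 0 by edgeR; in the former 1500 and 919 genes had an unadjusted p under 0.05. Leaving out 1 Tranilast library gave 0 to 1 lower and 0 to 0 higher genes. Against Amphotericin B, where 1817 were lower and 2186 higher, library size only gave 763 and 5313, the mitochondrial rRNA covariate 11 and 75, and a threshold of 0.01 1053 and 902. Leaving out 1 Tranilast library gave 1299 to 1407 lower and 1504 to 1619 higher genes. The causes were not tested.

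Of 106 named genes that passed, 77 to 98 still passed when 1 library was left out and 79 did without composition factors. With the mitochondrial rRNA covariate the log2 fold change reversed for SLC31A1 (-0.0742) and COMMD1 (0.0048). It also reversed for CYP1B1 (0.0602) with library size only and for NQO1 without cisplatin replicate 2 (-0.0221, to 0.378 without cisplatin replicate 1). Of these only COMMD1 was called in the fit used for the results above. For NQO1, edgeR called an increase with the mitochondrial rRNA covariate (0.51, adjusted p = 0.0191) and with library size only (0.61, adjusted p = 0.0231). Total counts limit genes at a few CPM, such as ATP7B. The cisplatin libraries differed more among themselves than the Tranilast libraries, and the absence of a Tranilast-only group limits what the comparison separates.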
